A study of Mus musculus with 9 samples.

Results

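The proteasome genes of the mouse heart were followed through the first week after an acute myocardial infarction, in which loss of blood flow kills part of the heart muscle. They were the protein-coding genes whose symbols begin with Psma, Psmb, Psmc, Psmd, Psme, Psmf or Psmg, without the inducible catalytic subunits Psmb8, Psmb9 and Psmb10. Of 47 such genes, 45 reached a mean of 1 FPKM (fragments scaled by transcript length and by sequencing output) and made up the set, out of 13514 genes that reached that level and 25468 genes in all. The other 2 are Psma8, a testis form of an alpha subunit, and Psmb11, a thymus form of a catalytic subunit. By role, the set held 7 genes of the alpha rings and 7 of the beta rings of the 20S core, 6 ATPases and 11 other subunits of the 19S cap, 5 activators, 1 inhibitor and 7 assembly chaperones. The last gene, Psmc3ip, entered by its symbol and encodes a factor of meiotic recombination, not a proteasome subunit. Psme1 and Psme2 are themselves inducible by interferon gamma, so not every gene of the set is constitutive.

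Hearts of wild-type mice gave 3 libraries from 1 day after infarction, 3 from 7 days after infarction and 3 from sham-operated animals. The labels do not date the sham hearts relative to surgery, and the same 3 sham libraries served both comparisons. The series also names Hdc-/- hearts, which are not analysed here. The labels do not tie each library to its own animal, so p-values reflect the variation among these libraries only, some of which may be technical.

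The 26S proteasome degrades proteins that carry chains of ubiquitin. Its barrel, the 20S core, is built of outer alpha rings and inner beta rings, and the sites that cut proteins lie on the beta subunits Psmb5, Psmb6 and Psmb7. The 19S cap binds ubiquitin, removes it, unfolds the protein with a ring of ATPases and feeds it into the core. Other caps, such as the PA28 ring of Psme1 and Psme2, open the core without ATP, and in cells exposed to interferon gamma Psmb8, Psmb9 and Psmb10 take the places of the 3 constitutive catalytic subunits. In heart muscle, which renews its contractile proteins continually, the proteasome carries out much of that turnover.

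The libraries differed in ways that touch these genes. The FPKM of all genes summed to 597380 to 729940 at day 1, 521643 to 679204 at day 7 and 768943 to 792632 in sham, so libraries had not been brought to a common total. The number of reads behind a value is unknown. The 10 cardiomyocyte markers (Myh6, Tnnt2, Tnni3, Actn2, Ryr2, Pln, Myl2, Myl3, Ttn and Actc1) were all present, as the label heart requires, and summed to 18244 to 23062 FPKM at day 1, 14471 to 25587 at day 7 and 34968 to 38193 in sham. Of these 10 genes, 6 were called lower at day 1 and 6 at day 7 by limma, at an adjusted p under 0.05. Of 7 neutrophil markers, 7 were called higher at day 1 and none at day 7, and macrophages (5 of 8), fibroblasts (4 of 6) and dividing cells (8 of 8) had as many markers called higher at day 1 as at day 7. Equal counts did not mean equal levels or the same genes. Fibroblast markers summed to 1699 to 2256 FPKM at day 1, 4346 to 6108 at day 7 and 1066 to 1348 in sham. Of these 6, 3 were called higher at day 7 than at day 1. Dividing cell markers summed to 59.8 to 84.2 FPKM at day 1, 34.9 to 61.8 at day 7 and 8.06 to 22.0 in sham. Of the macrophage markers, only Cd68 and Cd14 were called at both times. In bulk tissue, fewer cells of a type and less RNA per cell cannot be told apart. The 3 airway epithelium genes summed to 1606 FPKM in day 1 replicate 2 and 172 in sham replicate 1, against 15 or less elsewhere, and the 4 T cell genes to 52.0 in day 7 replicate 2, against 9.98 or less elsewhere. The 4 atrial markers summed to 10948, 4319 and 281 FPKM at day 1, 5401, 771 and 1395 FPKM at day 7 and 2676, 1446 and 229 FPKM in sham. They were thus low in day 1 replicate 3 and sham replicate 3 and high in day 1 replicate 1. The 3 adipocyte genes summed to 451 FPKM in sham replicate 1, against 101 or less elsewhere, and the 4 skeletal muscle genes to 549.8 to 745 FPKM at day 1, 455 to 991 at day 7 and 772 to 883 in sham. Most of the skeletal muscle sum was Ckm, at 453 to 886 FPKM. In day 7 replicate 2, Myh4 was at 59.8, Mylpf at 79.3 and Actn3 at 11.0 FPKM, against 0.411, 1.42 and 0.291 or less elsewhere. The part of these differences in the results was not tested.

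Most proteasome genes were at a lower level in infarcted hearts than in sham hearts in FPKM, though in TPM, a scale with a common total per library, the median gene of the set was at 0.04 at day 1 and -0.01 at day 7 (log2). The genes of the PA28 cap, Psme1 and Psme2, fell on both scales and at both times. Summed over the 45 genes, the level was 2099, 2204 and 2718 FPKM at day 1, 1987, 2179 and 2141 FPKM at day 7, and 2984, 2846 and 2985 FPKM in sham hearts. All 6 infarct libraries lay below the lowest sham library. Calls rest on limma with log2(FPKM + 1) and a Benjamini-Hochberg adjusted p under 0.05 over all 13514 genes. At day 1, 10 of the 45 genes were called lower, where 14.7% of all genes tested were, and none higher, where 13.4% of all genes were; 21 of the 45 had an unadjusted p under 0.05. At day 7, 27 of the 45 were called lower, against 17.3% of all genes, and none higher, against 15.7%; 33 had an unadjusted p under 0.05. The median log2 fold change was -0.23 at day 1 and -0.35 at day 7, while the median of all genes was -0.01 and -0.02, and 39 of 45 and 42 of 45 genes lay below the median gene. The day 1 and day 7 libraries lay wholly below the sham libraries for 16 and 36 of the 45 genes, against 25.1% and 28.8% of all genes.

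**Figure D1:**
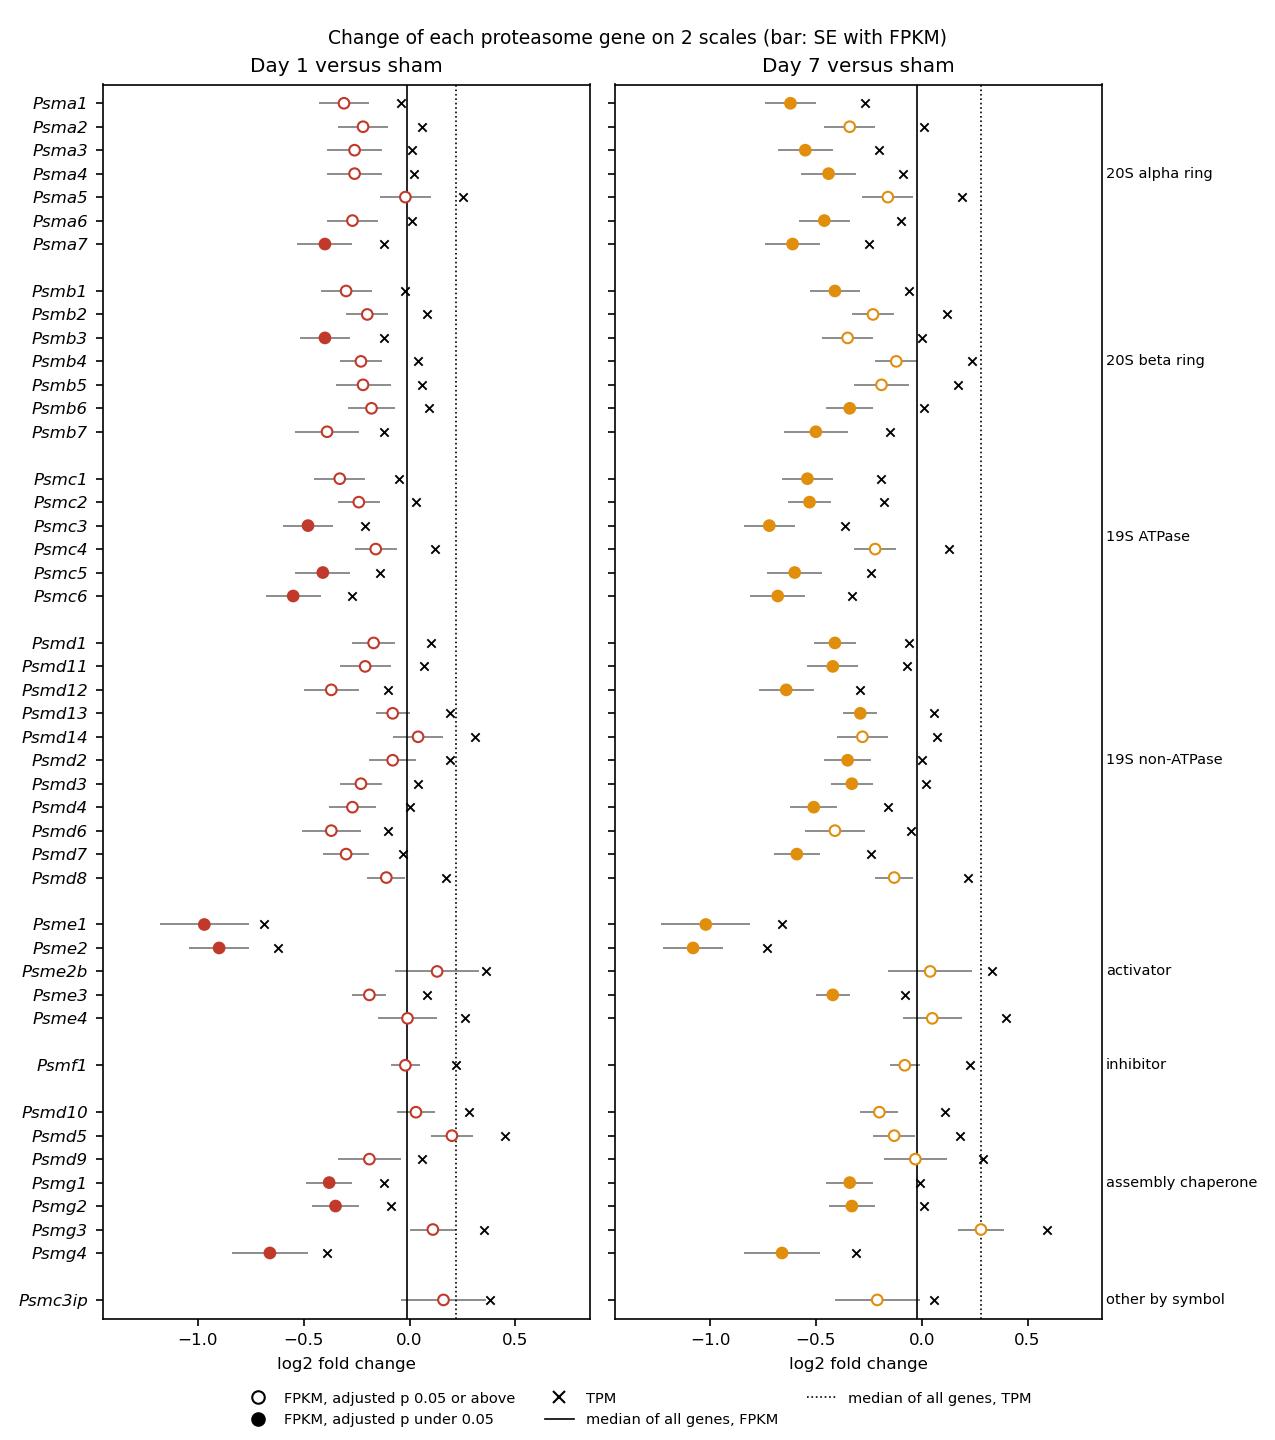
Log2 fold change of the 45 genes (rows, by role) at day 1 (left) and day 7 (right) against sham; circles are FPKM with SE bars, filled where the adjusted p was under 0.05, crosses are the same genes in TPM, and the vertical lines are the medians of all genes on each scale. Psme1 and Psme2 lie farthest left on both scales, while many of the others, lower in FPKM, lie near or above 0 in TPM.

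The size and even the sign of the common fall depended on how libraries were scaled. TPM, in which each library is rescaled to the same total, moved the median of all genes to 0.22 at day 1 and 0.28 at day 7. On that scale the median proteasome gene was at 0.04 at day 1, thus reversed in sign, and at -0.01 at day 7, and the calls shrank to 2 lower and 1 higher at day 1 and 3 lower and 2 higher at day 7. Of all genes, 4.43% were called lower and 17.6% higher at day 1 in TPM, and 3.89% and 27.8% at day 7. The share of proteasome genes called lower (4.44% and 6.67%) was then near the background. Those called higher, 1 and 2 of 45, were a smaller share than among all genes. A scaling with 1 factor per library shifts all genes by nearly the same log2 amount. It can therefore hardly move the set relative to the median gene. The median proteasome gene lay 0.22 below the median gene at day 1 in FPKM and 0.18 below it in TPM, and at day 7 the gaps were 0.34 and 0.30. Quantile normalization, which does not apply 1 factor per library, narrowed them to 0.05 and 0.21. With it 7 of the 45 genes were called lower at day 1, near the share of all genes (2000 of 13514). At day 7, 18 were, against 2189 of all genes. Below the median gene lay 30 of the 45 at day 1 and 39 at day 7. Median-ratio size factors, another scaling with 1 factor per library, ran from 0.985 to 1.02. With them 10 genes were called lower at day 1 and 27 at day 7, with medians of -0.21 and -0.33. Of all 13514 genes, 1936 and 2245 were then called lower. As a share of all FPKM, the 45 genes took 0.339%, 0.369% and 0.372% at day 1, 0.381%, 0.338% and 0.315% at day 7, and 0.376%, 0.36% and 0.388% in sham, and these ranges overlap. With the mitochondrially encoded genes left out of the total, the shares were 0.527%, 0.561% and 0.619% at day 1, 0.504%, 0.528% and 0.508% at day 7, and 0.623%, 0.588% and 0.631% in sham. On that last measure the day 7 libraries all lay below sham, and day 1 replicate 3 lay among the sham libraries.

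**Figure D2:**
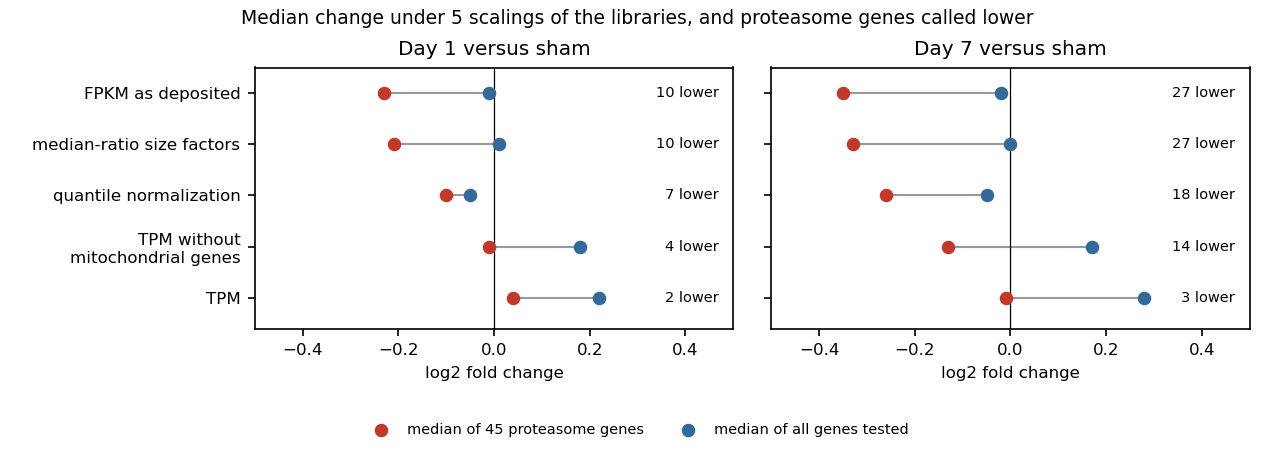
Median log2 fold change of the 45 proteasome genes (red) and of all genes tested (blue) against sham under 5 scalings, with the number of proteasome genes called lower. The proteasome median lies left of the gene median in all rows, an order that scalings with 1 factor per library (all but quantile normalization) can hardly change. Its sign and the number of calls do change: in TPM the day 1 median is above 0 and 2 genes are called lower.

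The day 1 counts depended on which libraries took part. Day 1 replicate 3 was the highest of the 3 day 1 libraries for 42 of the 45 genes, and the other 3 genes, Psme1, Psme2 and Psme2b, were highest in day 1 replicate 2. Its level reached or passed the lowest sham library for 28 genes, against 6 in day 1 replicate 1 and 8 in day 1 replicate 2. Its atrial markers were the lowest of the 6 infarct libraries (281 FPKM), and their part in this was not tested. Without it 29 genes were called lower at day 1, as were 2180 of all 13541 genes tested. Leaving out another library that took part in that comparison gave 2 without day 1 replicate 1, 2 without day 1 replicate 2, 3 without sham replicate 1, 2 without sham replicate 2 and 4 without sham replicate 3, and leaving out day 7 replicate 3 gave 6. Calls among all genes fell as well, from 1993 lower to 1238 and 792 without day 1 replicates 1 and 2. They were 1226, 817 and 1220 without sham replicates 1, 2 and 3, and 1940 without day 7 replicate 3. Of the 10 calls at day 1, 2 were kept whichever of the 9 libraries was left out, and these were Psme1 and Psme2. Of the 27 at day 7, 14 were kept. The count at day 7 was 14 without day 7 replicate 1, 17 without day 7 replicate 2, and 15, 14 and 15 without sham replicates 1, 2 and 3. In the same order, 1299, 1610, 1514, 1033 and 1489 of all genes were called lower, against 2341 with all libraries.

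The PA28 genes changed most. Psme1, which encodes the alpha subunit of PA28, was at 79.3, 96.3 and 83.3 FPKM at day 1, at 60.7, 103 and 91.0 FPKM at day 7 and at 199, 138 and 177 FPKM in sham hearts. All 6 infarct libraries were below all 3 sham libraries. Its log2 fold change was -0.97 at day 1 (SE 0.21, adjusted p = 0.0121) and -1.02 at day 7 (SE 0.21, adjusted p = 0.00987). Psme2, the beta subunit of the same ring, was at 61.7, 75.2 and 68.4 FPKM at day 1, at 56.6, 66.2 and 57.3 FPKM at day 7 and at 154, 114 and 119 FPKM in sham. Again no infarct library reached the lowest sham library. Its log2 fold change was -0.90 at day 1 (SE 0.14, adjusted p = 0.00432) and -1.08 at day 7 (SE 0.14, adjusted p = 0.00262). In TPM both were still called lower, Psme1 by -0.69 at day 1 (adjusted p = 0.0261) and -0.66 at day 7 (adjusted p = 0.0242), and Psme2 by -0.62 (adjusted p = 0.0252) and -0.73 (adjusted p = 0.0123). Psme2 was called in both comparisons under all 23 alternatives, Psme1 at day 7 under all 23 and at day 1 under 22, the exception being the fit without both libraries with airway markers (adjusted p = 0.0865). Psme2 shares 66.2% of its 31-base stretches with other genes, mainly with Psme2b, so how reads were divided between these genes bears on its level.

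The PA28 genes were also lower relative to the core they cap. The mean FPKM of Psme1 and Psme2 over the mean FPKM of the 14 core genes was 0.958, 1.09 and 0.769 at day 1, 0.811, 1.06 and 0.974 at day 7 and 1.72, 1.30 and 1.43 in sham hearts. This ratio is unchanged by any scaling that applies 1 factor to a whole library, which quantile normalization does not, and the infarct and sham libraries did not overlap. With 3 libraries against 3, an exact permutation test cannot give a p below 0.1, and the ratios were not tested. The ratio of Psme1 to Psme2 was 1.26 ± 0.0381 at day 1, 1.41 ± 0.291 at day 7 and 1.33 ± 0.138 in sham (SD, n = 3 each), with overlapping libraries.

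The inducible catalytic subunits, outside the set, were lower as well. Psmb10 was at 19.6, 28.2 and 21.1 FPKM at day 1, 23.7, 29.3 and 28.7 FPKM at day 7 and 93.8, 76.1 and 71.9 FPKM in sham. It was called lower in FPKM and TPM at both times (log2 fold change -1.77 and -1.53 in FPKM, adjusted p = 0.00106 and 0.00164; -1.50 and -1.18 in TPM, adjusted p = 0.00125 and 0.00362). Psmb8 was called lower in FPKM, by -1.20 at day 1 (adjusted p = 0.0195) and -1.36 at day 7 (adjusted p = 0.0119), and Psmb9 by -1.28 (adjusted p = 0.0192) and -1.41 (adjusted p = 0.0127). In TPM, neither passed at day 1 (adjusted p = 0.0639 and 0.0666) and both passed at day 7 (adjusted p = 0.0382 and 0.0437). Set against the constitutive subunit whose place it takes, Psmb10 over Psmb7 was 0.245, 0.346 and 0.188 at day 1, 0.326, 0.326 and 0.32 at day 7 and 0.753, 0.659 and 0.618 in sham. Psmb8 over Psmb5 was 0.553, 0.882 and 0.322 at day 1, 0.419, 0.692 and 0.359 at day 7 and 1.40, 0.942 and 0.976 in sham. Psmb9 over Psmb6 was 0.0785, 0.143 and 0.0374 at day 1, 0.0802, 0.098 and 0.0556 at day 7 and 0.183, 0.199 and 0.145 in sham. In all 3 pairs the infarct libraries lay below the sham libraries, with day 1 replicate 2 nearest to them.

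**Figure D3:**
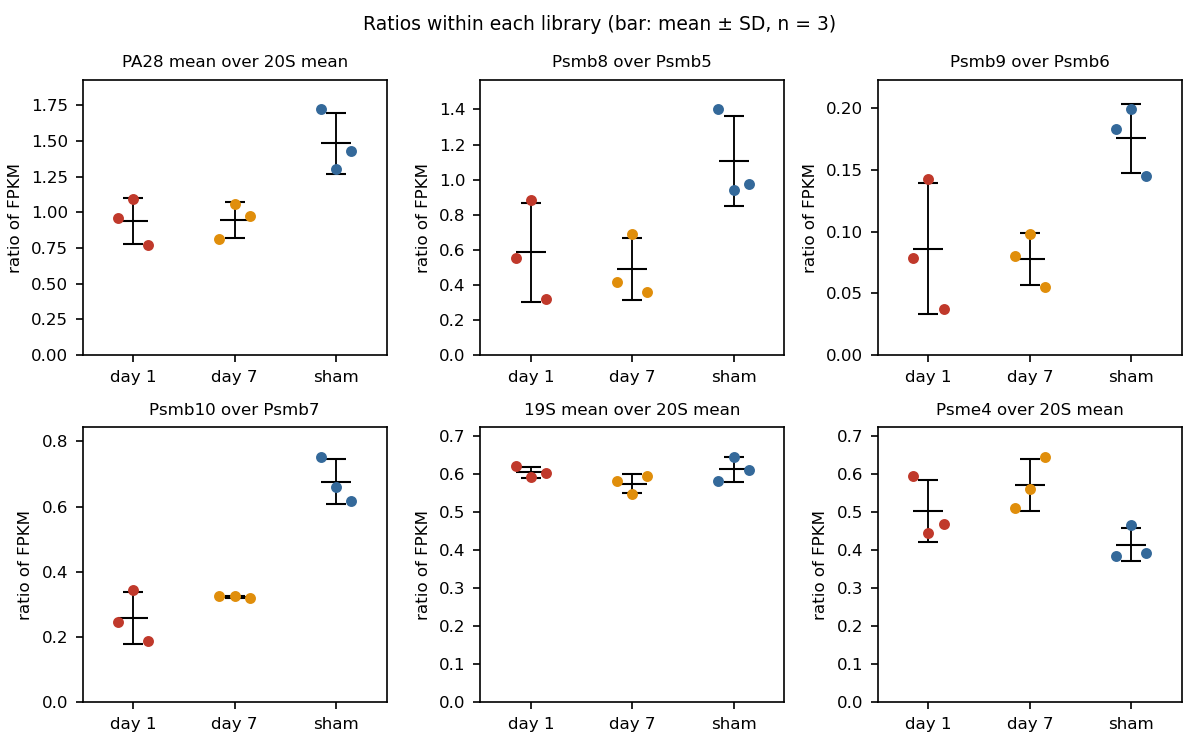
Ratios of FPKM within each library at day 1, day 7 and in sham (dots, replicates 1 to 3 from left to right; bars, mean ± SD, n = 3). The PA28 ratio and the 3 ratios of an inducible over a constitutive catalytic subunit are lower in all infarct libraries than in all sham libraries, while the 19S over 20S ratio overlaps between groups.

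Genes that interferon gamma induces stood apart in the same libraries. Of the 12 listed, 10 were called lower at day 1 and 10 at day 7 in FPKM, with median log2 fold changes of -1.22 and -1.36, and 5 and 8 in TPM. Summed, they reached 765, 1181 and 666 FPKM at day 1, 783, 965 and 754 FPKM at day 7 and 2952, 2883 and 2174 FPKM in sham. Iigp1, an immunity-related GTPase, was at 20.4, 36.2 and 14.9 FPKM at day 1, 16.6, 20.9 and 16.3 FPKM at day 7 and 465, 469.7 and 278 FPKM in sham. The high level thus lay in the sham hearts, and day 1 replicate 2 was again the highest infarct library. The part of these genes, and of the cardiomyocyte markers given above, in the fall of PA28 was not tested.

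The other activators changed less than PA28 in size, a difference that was not tested. Psme3, which encodes the nuclear gamma ring of the same family, was at 26.4, 25.7 and 29.3 FPKM at day 1, 23.8, 22.3 and 22.8 FPKM at day 7 and 33.0, 31.6 and 28.9 FPKM in sham. It was called lower at day 7 (-0.42 on the log2 scale, SE 0.08, adjusted p = 0.00935), where the groups did not overlap, and not at day 1 (-0.19, SE 0.08, adjusted p = 0.119). In TPM the day 7 value was -0.08 (adjusted p = 0.662) and the day 1 value changed sign to 0.08. Psme4, a large nuclear cap linked to the breakdown of histones, was at 43.9, 35.1 and 46.1 FPKM at day 1, 36.9, 44.6 and 49.2 FPKM at day 7 and 39.6, 45 and 40.6 FPKM in sham. The 3 groups overlapped (log2 fold change -0.01 and 0.05, SE 0.14, adjusted p = 0.969 and 0.789), and in TPM it was called higher at day 7 (0.40, adjusted p = 0.0207). Psme4 over the mean of the core genes was 0.596, 0.446 and 0.468 at day 1, 0.511, 0.56 and 0.646 at day 7 and 0.386, 0.466 and 0.393 in sham. All day 7 libraries exceeded all sham libraries in that ratio, and day 1 overlapped sham. Psme2b, a near copy of Psme2, was at 4.75, 6.63 and 2.93 FPKM at day 1, 4.34, 3.97 and 4.36 FPKM at day 7 and 4.04, 3.74 and 4.54 FPKM in sham, with overlapping groups, and was not called (adjusted p = 0.672 and 0.909). As 78.4% of its 31-base stretches occur in other genes, its level is uncertain.

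**Figure D4:**
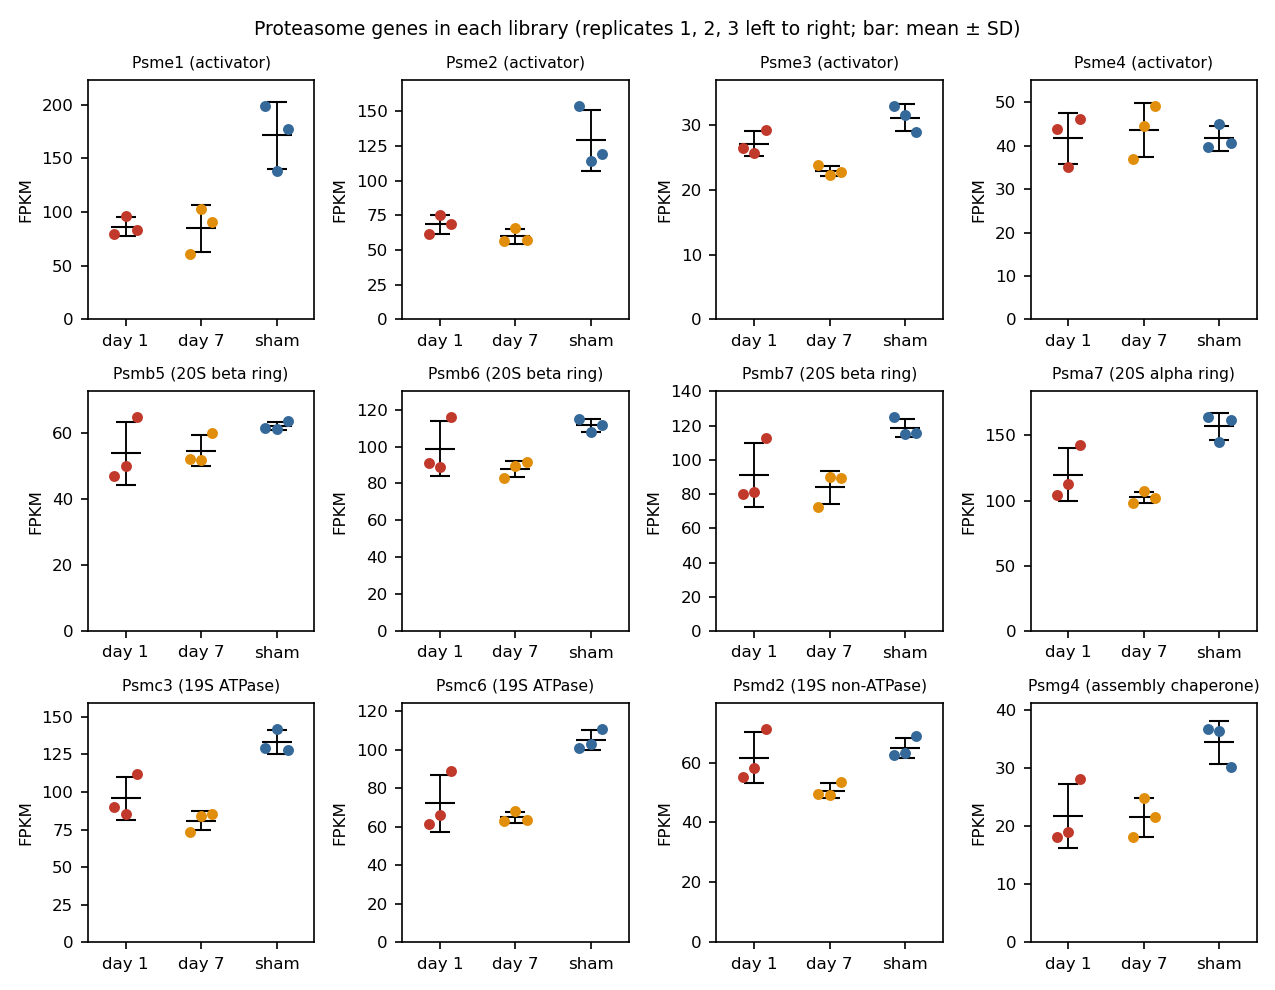
FPKM of 12 proteasome genes in every library at day 1, day 7 and in sham (dots, replicates 1 to 3 from left to right; bars, mean ± SD, n = 3). Psme1 and Psme2 show the widest gap to sham, Psme4 none, and for Psmb5, Psmb6 and Psmd2 day 1 replicate 3 lies above the highest sham library.

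Promoters of 4 genes are shown because they belong to members that fell (Psme1, Psmc6 and Psmg4) and to a catalytic subunit that was not called (Psmb5), and because each holds a motif of a factor linked to these genes. They are RefSeq sequences of GRCm38.p6, from 250 bases before to 50 after the start of the gene: chr14:55578244-55578543 on the plus strand for Psme1, chr13:34162714-34163013 on the plus strand for Psmg4, chr14:45329574-45329873 on the plus strand for Psmc6 and chr14:54617946-54618245 on the minus strand for Psmb5. The capitals mark a motif of interferon regulatory factors, spelled GAAANNGAA or TTCNNTTTC on the other strand, in Psme1 and Psmg4, and an antioxidant response element, spelled TGACNNNGC or GCNNNGTCA, in Psmc6 and Psmb5.
Psme1: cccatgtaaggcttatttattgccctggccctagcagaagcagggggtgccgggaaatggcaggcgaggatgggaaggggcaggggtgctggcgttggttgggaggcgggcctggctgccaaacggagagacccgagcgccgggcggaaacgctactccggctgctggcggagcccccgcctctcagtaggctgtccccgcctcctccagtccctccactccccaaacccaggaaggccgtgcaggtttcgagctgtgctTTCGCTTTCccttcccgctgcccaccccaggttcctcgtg
Psmg4: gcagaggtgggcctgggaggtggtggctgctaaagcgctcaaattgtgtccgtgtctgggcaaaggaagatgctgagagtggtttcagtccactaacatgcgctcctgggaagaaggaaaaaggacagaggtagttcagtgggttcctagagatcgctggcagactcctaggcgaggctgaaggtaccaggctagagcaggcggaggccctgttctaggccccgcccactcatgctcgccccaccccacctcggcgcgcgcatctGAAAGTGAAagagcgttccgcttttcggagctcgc
Psmc6: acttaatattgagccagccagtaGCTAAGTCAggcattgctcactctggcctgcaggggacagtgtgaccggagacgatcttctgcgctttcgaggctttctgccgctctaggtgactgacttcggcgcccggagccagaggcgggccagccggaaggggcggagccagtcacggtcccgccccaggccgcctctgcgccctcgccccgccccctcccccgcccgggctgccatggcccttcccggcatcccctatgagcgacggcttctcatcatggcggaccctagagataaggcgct
Psmb5: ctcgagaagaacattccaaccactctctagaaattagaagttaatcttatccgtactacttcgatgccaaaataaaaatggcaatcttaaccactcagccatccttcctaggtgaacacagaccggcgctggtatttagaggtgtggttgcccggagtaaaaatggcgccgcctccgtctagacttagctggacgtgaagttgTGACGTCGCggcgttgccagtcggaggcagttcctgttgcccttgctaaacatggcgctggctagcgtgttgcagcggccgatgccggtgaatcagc

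The motif of interferon regulatory factors begins 11 bases after the start in Psme1 and 16 after it in Psmg4. The antioxidant element begins 227 bases before the start in Psmc6 and 47 before it in Psmb5. Promoters were at hand for 38 of the 45 genes. Among these, 7 held the first motif (18.4%, against 9.76% of all genes with a promoter in the table) and 6 the second (15.8%, against 14%), while 2 held the interferon gamma element TTCNNNGAA (5.26%, against 9.55%). The promoters of Psme2 held none of the 3. Of the inducible subunits outside the set, Psmb8 held only the interferon gamma element, and Psmb9 and Psmb10 held none of the 3. Both motif classes occur in genes that fell and in genes that were not called, and a match of letters is a description, not a bound site.

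In the 20S core, calls in FPKM came mainly at day 7, and none passed in TPM. Of the 7 alpha genes, 1 was called lower at day 1 and 5 at day 7, with median log2 fold changes of -0.26 and -0.46. Of the 7 beta genes, 1 was called lower at day 1 and 3 at day 7, with medians of -0.23 and -0.34. Over all genes tested, 14.7% were called lower at day 1 and 17.3% at day 7. The day 1 counts of both rings were near that share. In TPM the medians were 0.01 and -0.10 for alpha and 0.04 and 0.01 for beta genes. Mean levels over the 9 libraries, which FPKM gives per transcript length, ranged from 43.8 FPKM for Psma5 to 126 FPKM for Psma7 in the alpha rings, and from 56.8 FPKM for Psmb5 to 99.6 FPKM for Psmb3 in the beta rings.

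Psma7, the most abundant core gene, was at 104, 113 and 143 FPKM at day 1, 98.4, 107 and 102 FPKM at day 7 and 164, 145 and 162 FPKM in sham. No infarct library reached sham, and it was called lower at day 1 (-0.40, SE 0.13, adjusted p = 0.0471) and at day 7 (-0.61, SE 0.13, adjusted p = 0.0108). The call at day 1 was lost on leaving out any of 7 libraries, that is, all but day 1 replicate 3 and day 7 replicate 1 (adjusted p up to 0.141). Psma5, the least abundant alpha gene, was at 40.7, 42.2 and 52.5 FPKM at day 1, 38.5, 42.3 and 41.3 FPKM at day 7 and 46.3, 41.0 and 49.8 FPKM in sham. Its groups overlapped (-0.02 and -0.16, SE 0.12, adjusted p = 0.915 and 0.317), and 66.5% of its 31-base stretches occur in other genes. Within each library, the highest core gene stood 2.55, 2.68 and 2.72 times above the lowest at day 1, 2.56, 2.53 and 2.47 times at day 7 and 3.54, 3.54 and 3.25 times in sham, with no overlap between infarct and sham libraries.

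Of the 3 catalytic subunits, none was called at day 1, and Psmb6 and Psmb7 were called lower at day 7 in FPKM but not in TPM. Psmb5, which carries the chymotrypsin-like site, was at 46.9, 49.8 and 64.7 FPKM at day 1, 51.9, 51.7 and 59.9 FPKM at day 7 and 61.4, 61.2 and 63.5 FPKM in sham. Day 1 replicate 3 was the highest of all libraries, and the gene was not called (-0.22 and -0.19, SE 0.13, adjusted p = 0.23 and 0.275; 0.06 and 0.17 in TPM). It shares 74.0% of its 31-base stretches with other genes. Psmb6, with the caspase-like site, was at 91.3, 89.0 and 116 FPKM at day 1, 82.9, 89.3 and 91.6 FPKM at day 7 and 115, 108 and 112 FPKM in sham. The day 7 libraries lay below sham and passed narrowly (-0.34, SE 0.11, adjusted p = 0.0491), a call that 17 of 23 alternatives did not keep, among them leaving out any library but day 1 replicate 3 (adjusted p up to 0.128), with a value of 0.01 in TPM. At day 1 it was not called (-0.18, SE 0.11, adjusted p = 0.264; 0.09 in TPM). Psmb7, with the trypsin-like site, was at 79.9, 81.4 and 113 FPKM at day 1, 72.7, 89.8 and 89.5 FPKM at day 7 and 125, 115 and 116 FPKM in sham. No infarct library reached sham, and the change was called at day 7 (-0.50, SE 0.15, adjusted p = 0.0322) but not at day 1 (-0.39, SE 0.15, adjusted p = 0.0777), nor in TPM. The day 7 call was lost without day 7 replicate 1 or 2 or any sham library (adjusted p up to 0.0975). Without day 1 replicate 3 all 3 were called lower at day 1 (adjusted p = 0.0285 for Psmb5, 0.0336 for Psmb6 and 0.0138 for Psmb7). Psmb3, a beta subunit without a catalytic site, was at 77.5, 86.7 and 105 FPKM at day 1, 87.7, 102 and 86.3 FPKM at day 7 and 121, 112 and 119 FPKM in sham. It was called lower at day 1 (-0.40, SE 0.12, adjusted p = 0.044) and missed the threshold at day 7 (-0.35, SE 0.12, adjusted p = 0.0577), and its day 1 call was lost without day 1 replicate 1 or 2, day 7 replicate 3 or any sham library (adjusted p up to 0.132).

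In the 19S cap, calls at day 1 fell on ATPases. Of the 6 ATPases, 3 were called lower at day 1 (Psmc3, Psmc5 and Psmc6) and 5 at day 7, all but Psmc4, with medians of -0.37 and -0.57. The share of all genes called lower was 14.7% at day 1 and 17.3% at day 7. Of the 11 other cap subunits, none was called at day 1 by limma (4 had an unadjusted p under 0.05) and 8 were at day 7, with medians of -0.21 and -0.41. At day 7 these were Psmd1, Psmd2, Psmd3, Psmd4, Psmd7, Psmd11, Psmd12 and Psmd13. In TPM, the only cap gene called was Psmc3 at day 7 (-0.36, adjusted p = 0.0227), and the medians were -0.10 and -0.22 for ATPases and 0.07 and -0.05 for the others. The difference between the 2 classes was not tested.

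Psmc6 was at 61.6, 66.1 and 89.2 FPKM at day 1, 63.3, 68.1 and 63.4 FPKM at day 7 and 101, 103 and 111 FPKM in sham. Psmc3 was at 89.9, 85.3 and 112 FPKM at day 1, 73.5, 83.9 and 85.5 FPKM at day 7 and 129, 142 and 128 FPKM in sham. For both ATPases every infarct library was below every sham library. Psmc6 fell by 0.55 at day 1 and 0.68 at day 7 on the log2 scale (SE 0.13, adjusted p = 0.0197 and 0.00918), and Psmc3 by 0.48 and 0.72 (SE 0.12, adjusted p = 0.0212 and 0.00601). At day 1 either call was lost without any of 4 libraries, which were day 1 replicates 1 and 2 and sham replicate 2 for both, with sham replicate 3 for Psmc6 and sham replicate 1 for Psmc3 (adjusted p up to 0.074 for Psmc6 and 0.0806 for Psmc3). Psmc3 at day 7 was called under all 23 alternatives. Psmc4, the ATPase that was not called, was at 35.6, 36.6 and 44.0 FPKM at day 1, 37.9, 34.2 and 38.4 FPKM at day 7 and 41.2, 42.9 and 45.3 FPKM in sham (-0.16 and -0.22, SE 0.10, adjusted p = 0.279 and 0.12).

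Among the other cap subunits, Psmd2, a large scaffold that docks ubiquitin carriers, was the most abundant. It was at 55.3, 58.2 and 71.3 FPKM at day 1, 49.4, 49.2 and 53.4 FPKM at day 7 and 62.6, 63.3 and 68.7 FPKM in sham. Day 1 overlapped sham (-0.08, SE 0.11, adjusted p = 0.614) and day 7 lay below it (-0.35, SE 0.11, adjusted p = 0.0373), with a value of 0.00 at day 7 in TPM. The call was lost without day 1 replicate 2 or any day 7 or sham library (adjusted p up to 0.111). Psmd13, the least abundant, was at 25.4, 28.2 and 29.4 FPKM at day 1, 22.6, 23.7 and 25.0 FPKM at day 7 and 29.4, 27.6 and 30.6 FPKM in sham. It too was called at day 7 only (-0.29, SE 0.08, adjusted p = 0.0322), with 0.06 in TPM, and the call was lost without day 7 replicate 1 or 2 or any sham library (up to 0.0996). The largest fall of this class was that of Psmd12, a subunit of the lid, at day 7 (-0.64, SE 0.13, adjusted p = 0.00901), followed by Psmd7, the partner of the deubiquitinase Psmd14 (-0.59, SE 0.11, adjusted p = 0.00848). Psmd14 itself was not called (0.04 and -0.28, SE 0.12, adjusted p = 0.853 and 0.102). The mean FPKM of the 17 cap genes over that of the core genes was 0.604 ± 0.0147 at day 1, 0.574 ± 0.0254 at day 7 and 0.612 ± 0.0327 in sham (SD, n = 3 each), and the groups overlapped.

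Among the assembly chaperones, Psmg1, Psmg2 and Psmg4, which help to build the alpha ring, were called lower at both times in FPKM and not in TPM. The values were -0.38 and -0.34 for Psmg1 (SE 0.11, adjusted p = 0.0314 and 0.0391) and -0.35 and -0.33 for Psmg2 (SE 0.11, adjusted p = 0.0433 and 0.0487), and leaving out most single libraries lost these calls (adjusted p up to 0.106 for Psmg1 and 0.154 for Psmg2). Psmg4 was at 18.1, 19 and 28.2 FPKM at day 1, 18.2, 24.9 and 21.6 FPKM at day 7 and 36.8, 36.4 and 30.2 FPKM in sham, with no overlap (-0.66 and -0.66, SE 0.18, adjusted p = 0.0268 and 0.0254; TPM -0.39 and -0.31, not called). Its calls were lost without replicate 1 or 2 of day 1 or of sham at day 1 (adjusted p up to 0.0947), and without day 7 replicate 1 or 3 or sham replicate 1 or 2 at day 7 (up to 0.0823). Psmg3, the partner of Psmg4, was at 5.52, 5.40 and 6.89 FPKM at day 1, 6.43, 7.05 and 6.77 FPKM at day 7 and 6.08, 5.12 and 5.01 FPKM in sham. The day 7 libraries all lay above sham, the only such gene of the 45, without a call in FPKM (0.28, SE 0.11, adjusted p = 0.0714) and with one in TPM (0.59, adjusted p = 0.00867). The 3 chaperones of the cap, Psmd5, Psmd9 and Psmd10, were not called in FPKM. Psmd5 stood at 8.64, 7.71 and 8.67 FPKM at day 1, 6.05, 6.39 and 6.81 FPKM at day 7 and 7.99, 7.29 and 6.18 FPKM in sham, and was called higher at day 1 in TPM (0.45, adjusted p = 0.0294).

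The inhibitor gene Psmf1 was at 6.81, 6.84 and 7.36 FPKM at day 1, 6.53, 6.45 and 7.05 FPKM at day 7 and 7.61, 7.01 and 6.78 FPKM in sham, with overlapping groups (-0.02 and -0.08, SE 0.07, adjusted p = 0.847 and 0.41). The shares of its 2 transcripts in that level varied among the libraries. The transcript with the highest mean level took 45.4%, 39.5% and 42.4% of the gene's FPKM at day 1, 51.9%, 61.2% and 49.7% at day 7 and 57.2%, 56.6% and 60.0% in sham. Day 1 lay below sham in all libraries, and with that transcript in place of the sum the gene was called lower at day 1 (-0.37, adjusted p = 0.0165). The step that divided reads between transcripts was not named in the sources used here. Psmc3ip was at 3.96, 3.44 and 4.53 FPKM at day 1, 2, 4.12 and 2.69 FPKM at day 7 and 4.07, 3.66 and 2.69 FPKM in sham and was not called (adjusted p = 0.583 and 0.442).

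No proteasome gene was called between day 7 and day 1, in either direction, by limma. Of all genes, 2.71% were called higher and 2.14% lower at day 7 than at day 1. The median proteasome gene lay at -0.16, the median gene at -0.01, and 10 of the 45 had an unadjusted p under 0.05. The 18 genes called lower at day 7 and not at day 1 are therefore not shown to differ between the times. Another 9 genes were called in both comparisons with sham, 1 (Psmb3) at day 1 alone and 17 in neither.

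Lists of genes around the proteasome are set against all genes, of which 13.4% were called higher and 14.7% lower at day 1, and 15.7% and 17.3% at day 7, with medians of -0.01 and -0.02. Of 9 further components measured, 3 were called lower at day 1 and 5 at day 7, and none in TPM, with medians of -0.22 and -0.33 in FPKM. Among them was Pomp, the maturation factor of the core, at 89.6, 98.5 and 105 FPKM at day 1, 74.1, 97.9 and 101 FPKM at day 7 and 154, 142 and 121 FPKM in sham (-0.50 and -0.61, SE 0.15, adjusted p = 0.0347 and 0.016). Of 10 regulators of proteasome genes, 1 was called higher and 2 lower at day 1 and 3 lower at day 7, while in TPM 3 and 1 were called higher and none lower. Their medians were -0.08 and -0.11 in FPKM, and the day 1 counts are near the share over all genes. Nfe2l1, the factor that raises proteasome genes when degradation is impaired, was at 69.3, 65.1 and 72.3 FPKM at day 1, 69.2, 67.5 and 76.5 FPKM at day 7 and 82.7, 99.6 and 85.8 FPKM in sham. It was called lower in FPKM (-0.37 and -0.32, SE 0.10, adjusted p = 0.0276 and 0.0379), with -0.09 and 0.03 in TPM. Ddi2, the protease that activates Nfe2l1, was at 16.2, 17.5 and 17.6 FPKM at day 1, 14, 12.9 and 12.8 FPKM at day 7 and 12.6, 12.5 and 13.4 FPKM in sham. It was called higher at day 1 in FPKM (0.38, SE 0.07, adjusted p = 0.00863) and TPM (0.64, adjusted p = 0.0141).

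On the side of the substrate, the polyubiquitin gene Ubb was at 281 to 301 FPKM at day 1, 299 to 301 FPKM at day 7 and 274 to 302 FPKM in sham. It was not called in FPKM (adjusted p = 0.915 and 0.715), but was higher at day 7 in TPM (0.41, adjusted p = 0.0369). Of 10 ubiquitin shuttles and partners of Vcp, 4 were called lower and 1 higher at day 1 and 5 lower at day 7, and in TPM 1 higher at day 1. Of 11 ubiquitin ligases of muscle, 5 were called lower at day 1, and 8 lower and 1 higher at day 7, with 3 lower at each time and 1 higher at day 7 in TPM, and medians of -0.40 and -0.60 in FPKM. Among these, Trim63, a ligase of the sarcomere, was at 52.7, 44.9 and 56.4 FPKM at day 1, 36.4, 47 and 55.5 FPKM at day 7 and 88.3, 96.9 and 105 FPKM in sham (-0.90 and -1.06, SE 0.16, adjusted p = 0.00645 and 0.004). The cardiomyocyte markers were lower in the same libraries, and their part in the fall of proteasome genes was not tested.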

How the data were processed

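Bulk RNA sequencing of 9 heart libraries was used. Per the labels' protocols, total RNA was taken with TRIzol and the VAHTS Universal V6 kit served for libraries. FastQC 0.11.9, HISAT2 2.1.0 and HTSeq 0.11.2 were used with GRCm39, per the submitters' processing notes. The authors deposited FPKM for 55361 transcripts. Among positive values, 11.8% were below 1e-06, so reads had been split among transcripts by a step that is not named there. Reads behind a value, and the depth of each library, are thus unknown.

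FPKM was summed per gene, and 13514 genes with a mean of 1 or more entered limma 3.58.1 (R 4.3.3) as log2(FPKM + 1) (variance trend, all 9 libraries, 1 mean per group, two-sided, Benjamini-Hochberg over all genes tested). This scale understates changes of low genes. TPM is FPKM rescaled to a common total. The alternatives were other pseudocounts, filters, scalings, variance models, gene types and transcripts, only the 2 groups compared, the replicate block, and leaving out libraries. The procedure was tested on simulated data. The proteasome genes, the lists and the tests were chosen with earlier results of these data known. Values in every library are given for the catalytic subunits and activators, the 4 largest called changes per direction and comparison, and the highest and lowest gene of each role; Psmd5 and genes outside the set were picked from the lists after their values were seen. Replicate numbers were not taken to pair the libraries, which the labels do not settle. Correlations of same-numbered libraries ran from -0.37 to 0.269, and those of differently numbered ones from -0.53 to 0.403. Between day 1 and day 7, same-numbered libraries gave 0.0543, 0.229 and 0.178, and the others 0.0396 or less. Shared 31-base stretches and gene overlaps came from the GENCODE M21 annotation of another build (GRCm38). In it 13 of the 45 genes overlap an exon of another gene, Psmb5, Psmd1, Psme2b and Psmg3 on the same strand, and the strand setting of the counting was not named in the sources used here. Some genes of the lists are not reported here.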

Additional observations from a re-analysis of the deposited data

Results flagged for a closer look

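Psmb11, a catalytic subunit made by epithelial cells of the thymus and left out of the set by its low mean, was listed at 0.666 FPKM in day 7 replicate 2, at 0 in all 3 sham libraries and at 0.0615 or less in the other infarct libraries, which is a signal in data the comparisons did not use. Genes of the thymus and of immature T cells, chosen after their values were seen, were high in the same library: Rag1 was at 18.7 FPKM and Dntt at 14.6 FPKM there, against 3.22 and 2.29 in day 1 replicate 2 and 0.268 and 0.218 or less elsewhere. Without day 7 replicate 2, 17 of the 45 genes were called lower at day 7, as were 1610 of all 13451 genes tested.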

How the results depend on the processing

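The number of proteasome genes called lower at day 1, 10 on the deposited scale, was 6 without a filter, 2 in TPM, 4 in TPM without mitochondrially encoded genes, 5 with only the 2 groups compared, 1 without both libraries with airway markers and 2 to 29 on leaving out 1 library. The number called higher at day 1 was 1 in TPM and 2 without mitochondrially encoded genes. At day 7, 27 were called lower, against 3 in TPM, 14 without mitochondrially encoded genes, 12 without the airway libraries and 14 to 31 on leaving out 1 library. Called higher at day 7 were 2 in TPM, 1 without mitochondrially encoded genes and 0 to 1 on leaving out 1 library (1 without day 1 replicate 3). The remaining alternatives stayed within 1.5 times of these counts. With replicate numbers as a block, 7 were called lower at day 1, 23 at day 7 and 0 between the times. Of all 13514 genes, the block gave 1590 lower at day 1, 1893 at day 7 and 93 between the times. The labels give libraries of the same replicate number nothing in common but that number. Over all genes, 1817 were called higher and 1993 lower at day 1 and 2127 and 2341 at day 7. No filter, which left 21763 genes to test, gave 1851 and 1726, and 2007 and 2019. Only the 2 groups compared gave 1804 and 2067, and 2011 and 2226. TPM gave 2385 and 598, and 3757 and 526; TPM without mitochondrially encoded genes gave 3544 and 894, and 3790 and 1043. A minimum of 5 FPKM, which left 8785 genes to test, gave 1199 higher and 1807 lower at day 1 and 1310 and 2073 at day 7. Without the airway libraries these counts were 245 and 142, and 1086 and 1054. On leaving out 1 library they were lowest without day 1 replicate 2 at day 1 (952 and 792) and without sham replicate 2 at day 7 (1120 and 1033).

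In FPKM, 39 of the 45 log2 fold changes were below 0 at day 1 and 42 at day 7, against 17 and 23 in TPM and 24 and 35 in TPM without mitochondrially encoded genes. Of 44 log2 fold changes of single genes that were recomputed under every alternative, those that changed sign in TPM were, at day 1, Psmb5 (0.059), Psmb6 (0.094), Psme3 (0.077) and Psme4 (0.263), and at day 7 Psmb5 (0.167), Psmb6 (0.014), Psmd13 (0.058), Psmd2 (0.004), Psmd3 (0.021) and Psmg2 (0.012). Without mitochondrially encoded genes, the changes of sign among these 44 were Psmb5 (0.005 at day 1, 0.036 at day 7), Psmb6 (0.04), Psme3 (0.024) and Psme4 (0.211) at day 1. Psme4 at day 1 also did so with median-ratio size factors (0.01), quantile normalization (0.116) and without the airway libraries (0.072), and it ranged from -0.085 to 0.108 at day 1 and from -0.038 to 0.165 at day 7 on leaving out 1 library. The cause was not tested. Over these 44 and all alternatives, 21 values changed sign, and of those that did not, 755 kept their side of the threshold, 232 lost it and 4 gained it. The unknown depth sets no interval on single values, and 3 libraries a group limit the precision.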
